A study of Mus musculus with 15 samples.

Results

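The ADAMTS proteases that cleave proteoglycans were followed in Mouse Embryonic Fibroblasts (MEFs) as 7 genes, Adamts1, Adamts4, Adamts5, Adamts8, Adamts9, Adamts15 and Adamts20. They were chosen by name among the 23462 genes named on the array, and every probe whose listed RefSeq transcript belongs to one of them was taken, 11 probes of 56605. The cells were Balb/c/3T3 clone A31, an established line grown from 1 clone, so no group represents more than this line. The 5 groups were controls without cytokine and MEFs given TNFα at 10 ng/ml, TGFß1 at 5 ng/ml, IL-1β at 1 ng/ml, or IL-6 at 20 ng/ml together with its soluble receptor sIL6R at 25 ng/ml. Their RNA was hybridised to 15 Agilent arrays of 1 color, 3 per group. All groups share the same culture medium and serum. The methods of the study give 24 h of stimulation for the controls, TNFα and TGFß1. The protocol text names 24 or 72 h of culture without tying a time to an array, and the time of the IL-1β and IL-6 groups was not given in the sources used here. Replicates of the first 3 groups are described as independent experiments, and those of the IL-1β and IL-6 groups are not described. The p-values rest on the spread between arrays within groups, pooled over all 5 groups. Arrays are called by their group and the number that opens their label.

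ADAMTS proteins are secreted zinc metalloproteases that carry thrombospondin repeats and act in the extracellular matrix. The members described here cut the lecticans, large proteoglycans such as aggrecan and versican that hold water in cartilage and in provisional matrix. Their activity is set by removal of a propeptide, by binding to matrix and cell surface, by the inhibitor TIMP-3 and by uptake through the receptor LRP1. ADAMTS4 and ADAMTS5 are known as the aggrecanases of arthritic cartilage. ADAMTS1 is best known for the cleavage of versican, and ADAMTS9 and ADAMTS20 for roles in the embryo.

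Of the 7 genes, 3 had a probe well above background, the mark given by the scanner software to a spot clearly brighter than its surroundings. These were Adamts1, Adamts4 and Adamts5. Adamts8, Adamts9, Adamts15 and Adamts20 were not well above background on any of the 15 arrays. Levels below are the log2 processed signal minus the 75th percentile of the array, so that 0 is the brightness of the probe at that percentile. Such levels compare 1 probe between arrays, and not 1 gene with another.

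The promoter of Adamts1 is shown because no other tested member had a promoter entry. It was read from RefSeq (GRCm38.p6) as the 250 bases before the start, chr16:85803114-85803363 on the minus strand. Capitals mark matches to a TATA box (TATAAA) or a GC box (GGGCGG) on either strand.
Adamts1: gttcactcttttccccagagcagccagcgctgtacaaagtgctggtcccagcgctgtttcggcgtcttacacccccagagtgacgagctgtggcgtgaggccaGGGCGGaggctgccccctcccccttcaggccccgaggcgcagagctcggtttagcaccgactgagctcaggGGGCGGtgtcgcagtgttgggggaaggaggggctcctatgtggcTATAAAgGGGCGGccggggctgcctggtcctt

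The TATA box lay 32 to 27 bases before the start, a motif found in 12.4% of 32851 RefSeq promoters of the same length. The window held 3 GC boxes, a motif present in 32.7% of promoters, and the 1 nearest to the start began 25 bases before it and did not overlap the TATA box. The letters of an AP-1 site (TGANTCA, in 6.75% of promoters), a SMAD box (CAGAC, 42.2%), a CCAAT box (CCAAT, 33.8%) and the NF-κB motif (3.9%) were not in this window. The window of Adamts20, which was not detected, held 3 GC boxes, 1 CCAAT box and 1 SMAD box but no TATA box. That of Adamts9, also not detected, held 1 GC box and none of the other letters searched. The promoter table covered 3 of the 7 genes, and Adamts4, Adamts5, Adamts8 and Adamts15 had no entry. Matches are a description of the letters and not evidence of binding.

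Several facts of the whole series bear on the values. The 75th percentile of the processed signal ranged from 508 to 683 between arrays, 48.3% to 54.8% of probes were well above background, and no spot was saturated. The arrays lay on 2 slides, each scanned at 1 time, and every group had arrays on both. The label numbers form 3 runs, 1 to 5, 6 to 10 and 11 to 15, each with 1 array per group, but no label says that a run is an experiment. Marker genes were read on their brightest probe only. All 10 fibroblast markers were detected on all 15 arrays, as were Cd68, Csf1r and Itgam of the 6 macrophage markers and Pecam1 of the 5 endothelial markers. Ptprc, Adgre1 and Tyrobp of the macrophage list, Cdh5, Kdr, Tek and Emcn of the endothelial list and Cdh1 of the epithelial list were detected on none. The chemokine gene Cxcl1 rose under TNFα by a log2 fold-change of 3.64 and under IL-1β by 4.14, the TGFß1 target Ccn2 rose under TGFß1 by 3.06, and the IL-6 target Socs3 rose under IL-6 by 2.39.

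Adamts5, an aggrecanase, was low under TNFα and TGFß1. On its brightest probe (A_55_P1970826, transcript NM_011782) its log2 level was -0.13, 0.57 and -0.06 in controls 1, 6 and 11. It was -2.98, -2.46 and -2.63 in TNFα arrays 4, 9 and 14, and -3.68, -3.00 and -4.15 in TGFß1 arrays 2, 7 and 12. All 6 of these treated arrays lay below all 3 controls, with a gap of more than 2 log2 units to the nearest.

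Adamts5 in IL-1β arrays 5, 10 and 15 had log2 levels of -1.39, -0.17 and -1.49. Array 10 stood close to control 1, so that the IL-1β and control groups were separated by a small margin only. The IL-6 arrays 3, 8 and 13 gave -0.51, 0.54 and -0.99 and overlapped with the controls. The mean log2 level was thus 0.13 ± 0.39 (SD, n = 3) in controls, -0.32 ± 0.79 under IL-6, -1.01 ± 0.74 under IL-1β, -2.69 ± 0.26 under TNFα and -3.61 ± 0.58 under TGFß1.

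Adamts1, a versican-cleaving protease, followed the same order of groups. Its only probe (A_52_P489295, transcript NM_009621) had log2 levels of 3.80, 5.29 and 4.29 in controls 1, 6 and 11. The TNFα arrays 4, 9 and 14 gave 1.74, 2.48 and 1.76, and the TGFß1 arrays 2, 7 and 12 gave 1.37, 2.13 and 1.39. Neither of these groups overlapped with the controls, and they overlapped with each other.

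Adamts1 gave log2 levels of 2.75, 4.32 and 2.98 in IL-1β arrays 5, 10 and 15 and of 3.44, 4.50 and 3.83 in IL-6 arrays 3, 8 and 13. Both groups reached into the range of the controls. Group means of the log2 level were 4.46 ± 0.76 (SD, n = 3) in controls, 3.92 ± 0.53 under IL-6, 3.35 ± 0.85 under IL-1β, 2.00 ± 0.42 under TNFα and 1.63 ± 0.44 under TGFß1.

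Adamts4, the other aggrecanase, moved the opposite way under TGFß1. Its brightest probe (A_55_P1955778, transcript NM_172845) had log2 levels of 0.51, 1.16 and 0.68 in controls 1, 6 and 11. The TGFß1 arrays 2, 7 and 12 gave 2.43, 3.29 and 2.44, and the TNFα arrays 4, 9 and 14 gave 0.94, 1.09 and 0.92. The TGFß1 arrays stood above all other arrays of the series, and the TNFα arrays lay inside the range of the controls.

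Adamts4 in IL-6 arrays 3, 8 and 13 had log2 levels of 1.5, 2.29 and 1.60, all above the controls and all below TGFß1. In IL-1β arrays 5, 10 and 15 it had 0.80, 1.36 and 1.05, which overlapped with the controls. Group means of the log2 level were 2.72 ± 0.50 (SD, n = 3) under TGFß1, 1.80 ± 0.43 under IL-6, 1.07 ± 0.28 under IL-1β, 0.98 ± 0.10 under TNFα and 0.78 ± 0.34 in controls.

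**Figure D1:**
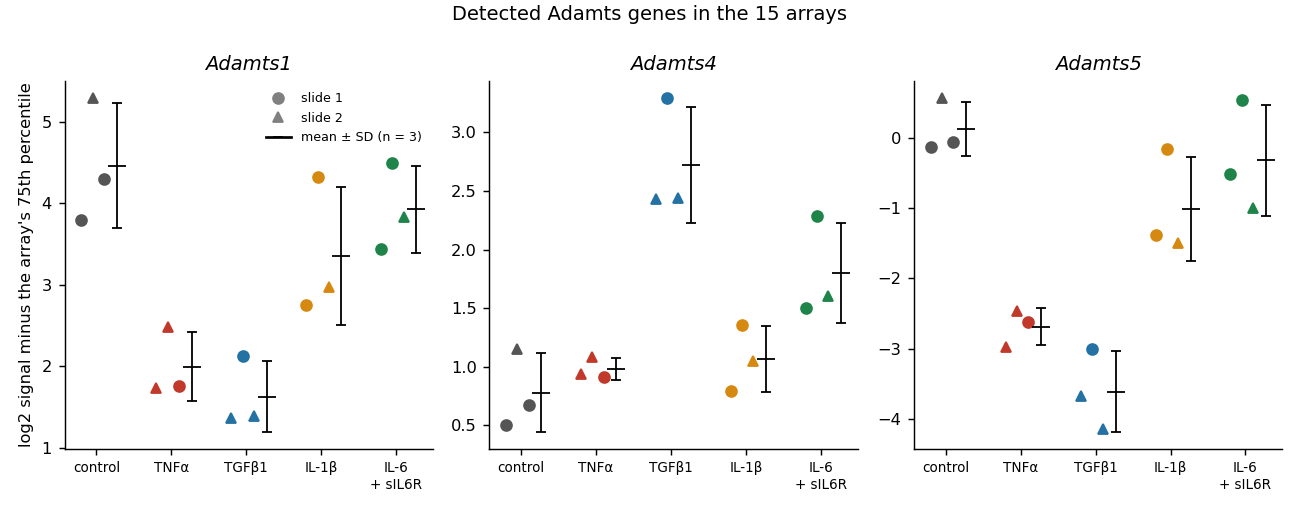
Level of Adamts1, Adamts4 and Adamts5 in each of the 15 arrays, as log2 processed signal minus the 75th percentile of the array, on the brightest probe of each gene. Points are arrays (circles slide 1, triangles slide 2, in order of label number within a group) and bars are the mean ± SD of 3 arrays. Adamts1 and Adamts5 are low under TNFα and TGFß1, and Adamts4 is high under TGFß1.

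In every group the middle run of label numbers, control 6, TNFα 9, TGFß1 7, IL-1β 10 and IL-6 8, gave the highest array for Adamts1, Adamts4 and Adamts5 alike. This pattern held for 4.56% of the 29256 tested probes with a value on all arrays, and the reverse pattern, that run lowest in all 5 groups, for 4.27%. Arrays of the run lay on both slides. Whether the runs are experiments cannot be read from the labels.

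The question of the comparisons with controls was which members each cytokine changed. A member was called at a q-value below 0.05 and a fold-change of at least 1.5 in limma, with q-values adjusted over all 29333 probes tested and each gene represented by its brightest probe. Under TNFα, 2 of the 3 tested members were called lower and none higher, where 6.06% of all tested probes were called lower and 4.12% higher. Adamts5 fell by 2.81 on the log2 scale (SE 0.44, 95% confidence interval -3.76 to -1.87, q = 0.00119), which is 7.03-fold. Adamts1 fell by 2.47 (SE 0.47, interval -3.48 to -1.46, q = 0.00428), or 5.52-fold. The log2 fold-change of Adamts4 was 0.20 (interval -0.39 to 0.79, q = 0.685), so that a rise above 0.79 or a fall beyond 0.39 lies outside its interval. In bulk RNA such as this, fewer cells with a transcript and less of it per cell cannot be told apart.

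Under TGFß1 all 3 tested members were called, 2 lower and 1 higher, where 10.8% of tested probes were called lower and 7.17% higher. Adamts5 fell by 3.74 on the log2 scale (SE 0.44, interval -4.69 to -2.79, q = 0.000105), a 13.3-fold drop. Adamts1 fell by 2.83 (SE 0.47, interval -3.84 to -1.82, q = 0.00101), a 7.11-fold drop. Adamts4 rose by 1.94 (SE 0.27, interval 1.35 to 2.53, q = 0.000346), a 3.84-fold rise. Both aggrecanases therefore changed under TGFß1, in opposite directions.

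Sizes under TGFß1 differed between the slides. For Adamts5 the log2 difference from controls was -2.91 within slide 1 and -4.48 within slide 2, for Adamts1 -1.91 and -3.91, and for Adamts4 2.70 and 1.28. Under TNFα the same differences were -2.53 and -3.29 for Adamts5 and -2.28 and -3.18 for Adamts1. Each direction was the same on both slides. Control 6 was the only control on slide 2 and TGFß1 7 the only TGFß1 array on slide 1, both from the middle run and the highest arrays of their groups. With the slide as a block the calls of the members were unchanged, and Adamts5 fell by 3.60 under TGFß1 (q = 0.000127).

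Of the 5 epithelial markers 2 were tested, the keratin genes Krt8 and Krt18. The levels of all 5 were summed on the linear scale and the sum was put on the log2 scale, so its brightest genes weigh most. This log2 sum ranged from -2.77 to -1.36 under TGFß1 and from -4.22 to -2.96 in controls. Under TGFß1 Krt8 was called higher (log2 fold-change 2.17, q = 0.0176). Krt18 was not called (log2 fold-change 1.77, q = 0.176), and its TGFß1 arrays overlapped with the controls. Krt8 was not well above background in any control and at least 3.32-fold higher under TGFß1, where that bound replaces a dim control by the lowest signal well above background on its array. Of the 5 markers Cdh1 was well above background on no array, Epcam and Cldn4 on 1 array each, Krt8 on 4 and Krt18 on 10. The log2 sum of the macrophage markers, formed in the same way, overlapped between all groups, 2.73 to 3.86 in controls against 2.93 to 3.75 under TGFß1. Of the 10 fibroblast markers 1 was called higher and 4 lower under TNFα, against 4.12% and 6.06% of tested probes. Under TGFß1 2 were called higher and 2 lower, against 7.17% and 10.8%. The part of the marker genes in the changes of the members was not tested.

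Under IL-1β none of the 3 tested members was called, where 0.245% of tested probes were called higher and 0.00682% lower. At an unadjusted p below 0.05, 2 of the 3 members passed, as did 3.71% of all probes in limma. The log2 fold-change of Adamts5 was -1.14 (SE 0.44, interval -2.09 to -0.19, q = 1.0) and that of Adamts1 was -1.11 (SE 0.47, interval -2.12 to -0.10, q = 1.0). That of Adamts4 was 0.29 (interval -0.30 to 0.88, q = 1.0). Within slides 1 and 2 the difference was -0.68 and -2.06 for Adamts5 and -0.51 and -2.31 for Adamts1.

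The IL-1β result depended on how the runs of label numbers were treated. Within the runs 1 to 5, 6 to 10 and 11 to 15, the IL-1β array lay below its control by a log2 difference of -1.26, -0.74 and -1.43 for Adamts5 and of -1.05, -0.98 and -1.31 for Adamts1. A fit with the runs and the slide as blocks, blocks that the labels do not state, left the fold-changes at -1.14 and -1.11 and reduced the SE to 0.17 and 0.16. Both genes were then called, with q = 0.0122 for Adamts5 and q = 0.011 for Adamts1. That fit called 1.09% of all probes under IL-1β, against 0.252% without blocks, and 14.8% had an unadjusted p below 0.05.

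Under IL-6 with its receptor no member was called either, where 0.0648% of probes were called higher and 0% lower. At an unadjusted p below 0.05, 1 of 3 members passed, against 3.26% of all probes in limma. This was Adamts4, with a log2 fold-change of 1.02 (SE 0.27, interval 0.43 to 1.61, q = 0.527). The 3 runs gave differences of 1.00, 1.13 and 0.92, the slides 1.30 and 0.44, and the fit with runs and slide called it (q = 0.0101), as it did 0.777% of all probes. The log2 fold-change of Adamts1 was -0.54 (interval -1.55 to 0.47) and that of Adamts5 was -0.45 (interval -1.40 to 0.50), both with q = 1.0 and neither called with runs and slide as blocks.

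**Figure D2:**
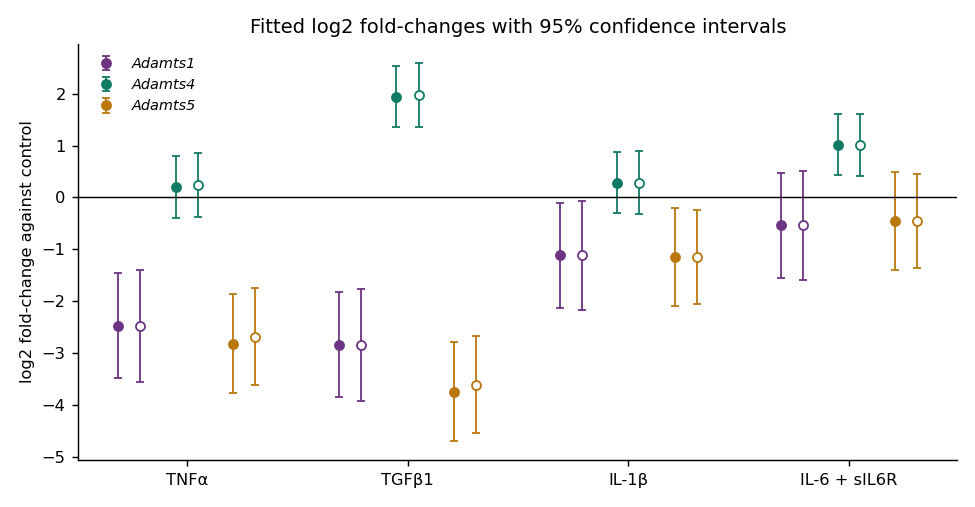
Fitted log2 fold-change of Adamts1, Adamts4 and Adamts5 against control under each cytokine, with 95% confidence intervals from limma. Filled points are from the fit of 15 arrays without covariates and open points from the fit with the slide as a block, and both place Adamts5 lowest under TGFß1 (-3.74 and -3.60).

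The cytokines were also compared with each other, which places the groups of each gene in order. For Adamts5 the order of mean levels was control, IL-6, IL-1β, TNFα and TGFß1. IL-6 lay below controls by the -0.45 given above, and IL-1β below IL-6 by a log2 difference of -0.69 (interval -1.64 to 0.26, q = 1.0). The only neighbours that were called were IL-1β and TNFα, where IL-1β was higher by a log2 difference of 1.67 (SE 0.44, q = 0.0431). That call was at the edge of the threshold and was lost when any 1 of 10 arrays was left out, with q up to 0.196 without IL-1β 10. With runs and slide as blocks its q was 0.000317. TNFα stood above TGFß1 by 0.92 (interval -0.02 to 1.87, q = 0.196), and this difference was called with runs and slide as blocks (q = 0.00249).

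Adamts1 had the same order of mean levels, and no pair of neighbours in it was called. IL-1β was below IL-6 by a log2 difference of -0.57 (interval -1.58 to 0.44, q = 1.0). IL-1β was above TNFα by a log2 difference of 1.35 (interval 0.34 to 2.36, q = 0.119), without overlap between the arrays, and this was called with runs and slide as blocks (q = 0.000451). TNFα and TGFß1 differed by 0.37 (interval -0.65 to 1.38, q = 0.711).

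For Adamts4 the order was TGFß1, IL-6, IL-1β, TNFα and control. IL-6 lay below TGFß1 by 0.92 on the log2 scale (SE 0.27, q = 0.0284), a call lost without TGFß1 7 (-0.64, q = 0.107), IL-6 3 or IL-6 13, and TNFα lay below TGFß1 by 1.74 (q = 0.000759). IL-1β was below IL-6 by 0.73 (interval -1.32 to -0.14, q = 0.707), a difference called with runs and slide as blocks (q = 0.0174). IL-1β and TNFα differed by 0.09 (interval -0.50 to 0.68, q = 0.893).

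Counted over the comparisons between cytokines, 1 of the 3 members was called between TNFα and TGFß1, where 11.8% of probes were called. Between IL-1β and TNFα it was 1 member against 4.83% of probes, and between IL-6 and TNFα 2 members against 8.68%. Between IL-1β and TGFß1 all 3 were called against 17% of probes, and between IL-6 and TGFß1 all 3 against 16.4%. Those of Adamts1 in IL-1β against TGFß1 (log2 difference 1.72, q = 0.0189) and in IL-6 against TNFα (1.93, q = 0.0185) were each lost without any 1 of 3 arrays. Between IL-1β and IL-6 none was called, against 0.419% of probes and with 1 member at an unadjusted p below 0.05. These comparisons share arrays with each other and with the comparisons above, and with 3 members a share cannot be read closely.

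**Figure D3:**
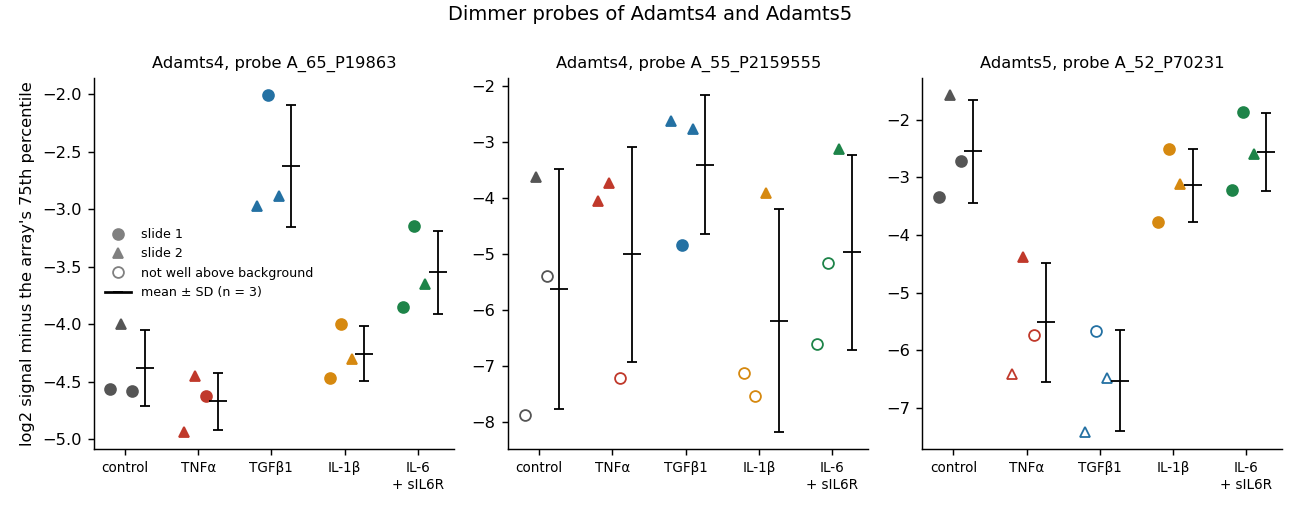
Level of the dimmer probes of Adamts4 and Adamts5 in each array, as log2 processed signal minus the 75th percentile of the array, with the mean ± SD of 3 arrays. Open symbols are arrays where the probe was not well above background. Adamts4 is high under TGFß1 on A_65_P19863, Adamts5 is low under TNFα and TGFß1 on A_52_P70231, and A_55_P2159555 splits by slide.

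Other probes of these genes were compared with the brightest. The second Adamts5 probe (A_52_P70231) had log2 levels of -3.34, -1.57 and -2.72 in controls 1, 6 and 11, and it was not well above background on TGFß1 arrays 2, 7 and 12 and on TNFα arrays 4 and 14. On it Adamts5 was at least 7.09-fold lower under TGFß1, a bound that puts the lowest signal well above background of an array in place of a dimmer value. The bound itself was not tested. The fitted log2 fold-change of the values as measured was -3.99 under TGFß1 (q = 0.000702) and -2.97 under TNFα (q = 0.00765). It was -0.60 under IL-1β (interval -1.94 to 0.75, q = 1.0), where the brightest probe gave -1.14. With runs and slide as blocks the difference of IL-1β from controls was not called on this probe (q = 0.0726). IL-1β was called above TNFα on it (log2 difference 2.38, q = 0.0428), with TNFα arrays 4 and 14 not well above background.

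The Adamts4 probe A_65_P19863 was well above background on all 15 arrays and had a log2 fold-change of 1.76 under TGFß1 (SE 0.27, q = 0.000709) and 0.83 under IL-6 (q = 0.87). The IL-6 difference on this probe was called with runs and slide as blocks (q = 0.0115). Under TNFα it was at -0.29 (interval -0.89 to 0.31), where the brightest probe was at 0.20. On this probe IL-6 was called above TNFα, by 1.12 on the log2 scale (q = 0.0195), while the brightest probe gave 0.82 (q = 0.0779) and was called with runs and slide as blocks (q = 0.00179). The probe A_55_P2159555 was well above background on all 7 arrays of slide 2 and on 1 of the 8 arrays of slide 1, TGFß1 7. Its log2 level ranged over -7.87, -3.62 and -5.38 within the controls alone, its SE was 1.35, and nothing was called on it without a block. With the slide as a block, IL-1β was called below TGFß1 on it (log2 difference -1.81, q = 0.0266), and with runs and slide TNFα was as well (-1.60, q = 0.0348).

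The 4 undetected members were close to the lower end of the scale. The lowest signal well above background lay at a log2 level of -5.72 to -4.99, depending on the array. Adamts8, known for inhibiting the growth of blood vessels, ranged from -7.97 to -7.23 with a median of -7.69 over the 15 arrays (probe A_55_P2005833, NM_013906). Adamts9, a versican protease of the embryo, ranged from -7.80 to -6.41 (A_55_P2504780, NM_175314, median -7.41). Adamts15, a versican protease, ranged from -7.77 to -6.35 (A_51_P311038, NM_001024139, median -7.48).

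Adamts20 was represented by 2 probes for 2 transcripts. The log2 level of A_52_P406233 (NM_177431) ranged from -7.80 to -6.26 and that of A_52_P242480 (NM_001164786) from -8.05 to -7.30. All 15 arrays stood below the detection level for each of these 5 probes. The processed signal was 2.56 to 7.52, against 12.8 to 18.1 for the dimmest detected probe of an array, so a level below that brightness would not have been seen here, and no fold-change was computed.

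**Figure D4:**
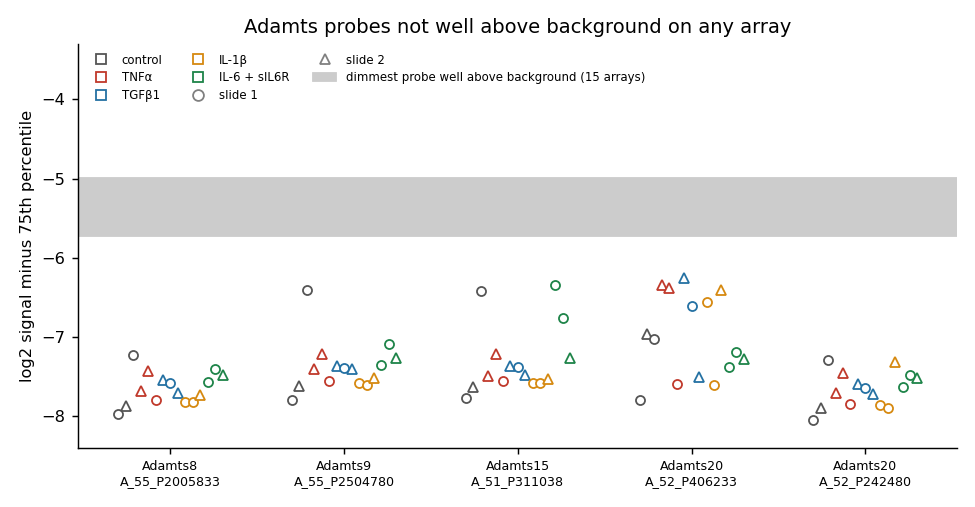
Level of the 5 probes of Adamts8, Adamts9, Adamts15 and Adamts20 in each of the 15 arrays, as log2 processed signal minus the 75th percentile of the array. The gray band spans, over the arrays, the level of the dimmest probe well above background (-5.72 to -4.99), and every point lies under it.

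The genes that act with these proteases were taken from 5 lists, chosen with results of these data known and described by counts only. Their detection is given for the brightest probe of each gene, and other probes were not checked for it. Of the 12 other ADAMTS proteases 6 were tested. Under TNFα 2 were called higher and 2 lower, against 4.12% and 6.06% of all tested probes. Under TGFß1 1 was called higher and none lower, against 7.17% and 10.8%. None was called under IL-1β or IL-6, where 0.252% and 0.0648% of probes were called. The median log2 fold-change of these 6 was 0.13 under TNFα and 0.25 under TGFß1, against 0.04 and 0.05 over all tested probes. Adamts3, Adamts13, Adamts17, Adamts18 and Adamts19 were not detected on any array, and Adamts16 on 1.

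Adamts7, a protease of cartilage oligomeric matrix protein, rose under TNFα by a log2 fold-change of 3.26 (SE 0.33, q = 5.56e-05). Its log2 level was -3.60, -3.67 and -3.81 in controls 1, 6 and 11 and -0.68, -0.14 and -0.49 in TNFα arrays 4, 9 and 14, so the groups were far apart. Under IL-1β, arrays 5, 10 and 15 gave -2.28, -1.80 and -2.93, all above the controls, with a log2 fold-change of 1.36 (q = 0.217) that was called with runs and slide as blocks (q = 0.00996).

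The procollagen N-proteinases went apart under TNFα. Adamts14 rose by 1.52 on the log2 scale (SE 0.19, q = 0.0002) and Adamts2 fell by 1.52 (SE 0.16, q = 6.81e-05). Adamts10, a protease that binds fibrillin, fell by 0.75 (SE 0.18, q = 0.0148). Under TGFß1 Adamts6, the close relative of Adamts10, rose by 2.36 (SE 0.34, q = 0.000445), with log2 levels of -5.01, -4.09 and -5.40 in the controls, the last not well above background, against -2.38, -2.82 and -2.22.

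Of the 7 ADAMTS-like proteins and papilin, which share the repeats but lack the protease, 2 were tested. Both were called lower under TGFß1, where 10.8% of all tested probes were called lower. Adamtsl4, which binds fibrillin microfibrils, fell by 0.93 on the log2 scale (SE 0.18, q = 0.00267), and Adamtsl5 fell by 1.02 (SE 0.15, q = 0.000388), where its other tested probe gave -0.11. The median of the list under TGFß1 was -0.97, and none was called under TNFα, IL-1β or IL-6. Adamtsl1, Adamtsl2 and Adamtsl3 were not detected on any array.

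Among the 8 lecticans and link proteins, the substrates and their hyaluronan links, 3 were tested. Acan, which encodes aggrecan, was not detected on any array, nor were Bcan, Hapln1 and Hapln2. Vcan, which encodes versican, was the only lectican tested. Its log2 level was 3.81, 4.21 and 3.49 in controls 1, 6 and 11, then 2.00, 2.35 and 2.00 in TNFα arrays 4, 9 and 14 and 2.67, 3.21 and 2.73 in TGFß1 arrays 2, 7 and 12.

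Neither treated group overlapped with the controls for Vcan. It fell by 1.72 on the log2 scale under TNFα (SE 0.24, q = 0.000618) and by 0.97 under TGFß1 (SE 0.24, q = 0.0124), with log2 fold-changes of -0.01 under IL-1β and 0.27 under IL-6 (both q = 1.0). The list's median was 0.01 under TNFα and 0.18 under TGFß1, as Hapln3 and Hapln4 were not called.

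Of 5 inhibitors 4 were tested. Under TNFα 1 was called lower, against 6.06% of all tested probes. Under TGFß1 2 were called lower and 1 higher, against 10.8% and 7.17%. Timp3, which encodes the inhibitor most active on ADAMTS4 and ADAMTS5, had log2 levels of 0.57, 0.33 and 0.49 in controls 1, 6 and 11. It had -3.19, -2.45 and -3.26 under TNFα and -3.03, -2.32 and -3.38 under TGFß1. Timp3 fell by 3.43 (SE 0.29, q = 1.43e-05) and by 3.38 (q = 1.16e-05), and its second probe gave -3.55 and -3.37.

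Under TGFß1 Timp2 fell by 0.89 on the log2 scale (SE 0.12, q = 0.000288) and Timp1 rose by 0.96 (SE 0.27, q = 0.0229). Timp4 was not well above background on any TNFα array and was not called there (q = 0.0813). Medians of the inhibitors were -1.69 under TNFα, or -0.85 with Timp4 at its bound of at least 2.31-fold lower, and -0.84 under TGFß1, and none was called under IL-1β or IL-6. A2m, the gene of the broad protease trap alpha-2-macroglobulin, was not detected on any array.

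Of 9 genes for activation, anchoring and uptake 7 were tested. Under TNFα 1 was called lower, against 6.06% of all tested probes. Under TGFß1 2 were called higher and 2 lower, against 7.17% and 10.8%. Furin, the convertase that removes the propeptide, rose under TGFß1 by 0.76 on the log2 scale (SE 0.13, q = 0.00141). Fn1, the fibronectin gene, rose by 0.79 (SE 0.23, q = 0.0236). Sdc4, for the surface proteoglycan syndecan-4, fell by 0.96 (SE 0.19, q = 0.0027), and Fbln1, for fibulin-1, a cofactor of ADAMTS1, fell by 0.85 (SE 0.27, q = 0.0371).

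Under TNFα the gene called lower was Fbln2, for fibulin-2, which fell by 0.65 (SE 0.13, q = 0.00588). Lrp1, the uptake receptor, had log2 fold-changes of -0.71 under TNFα (q = 0.0937) and 0.06 under TGFß1 (q = 0.887). Medians of the list were -0.36 and 0.06. Pcsk5 and Pcsk6, other convertases, were not detected on any array.

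**Figure D5:**
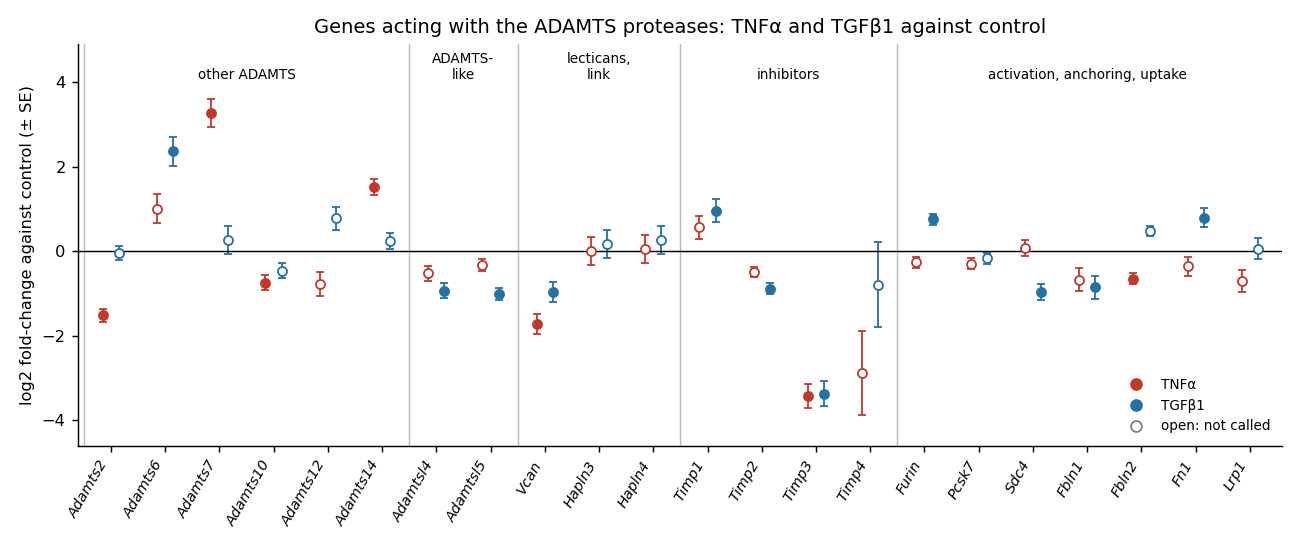
Log2 fold-change against control (± SE from limma) under TNFα and TGFß1 for the tested genes of the 5 related lists, filled where called at a q-value below 0.05 and a fold-change of at least 1.5. Timp3 lies near -3.4 under both cytokines, Adamts7 is high under TNFα (3.26) and Adamts6 under TGFß1 (2.36).

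Genes whose log2 levels were most like those of a member over the 15 arrays were named by Pearson's r among 13487 genes, as a description in which all points share the arrays and groups. For Adamts5 these were Prickle1, a planar polarity gene (r = 0.984), Selenbp2 (0.982) and Srr, the serine racemase gene (0.982). For Adamts1 they were Rab3il1 (0.983), Capn6 (0.977) and Cebpa, a transcription factor gene (0.977). Adamts1 and Adamts5 had an r of 0.966 with each other. For Adamts4 the nearest were Gfpt2, an enzyme of the hexosamine pathway (r = 0.945), Furin (0.933) and Hoxb4 (0.925), and its r was -0.308 with Adamts1 and -0.415 with Adamts5. Furin had log2 levels of 3.15, 3.52 and 3.33 in controls 1, 6 and 11 and of 4.10, 4.23 and 3.95 in TGFß1 arrays 2, 7 and 12, without overlap.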

How the data were processed

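The authors labelled RNA with Cyanine 3 and extracted the spots of each array with Agilent Feature Extraction 10.7.3.1. Per the file headers, the deposited intensity values are processed signals, already background-subtracted but not normalized between arrays, and the table of the series holds the same intensity (largest difference 0). The study's methods name limma, a q-value of 0.05 and a fold-change of 1.5.

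Spots marked as non-uniform or population outliers were left out (77 to 155 per array), spots of a probe were averaged on the log2 scale, and each array was scaled by subtracting its 75th percentile. Probes well above background (at least 0.5 of spots) on every array of at least 1 group were tested. All 15 arrays entered 1 limma 3.58.1 fit (R 4.3.3, lmFit and eBayes, two-sided, no covariates) with Benjamini-Hochberg adjustment, and 95% intervals came from its moderated SE. The number of arrays limits the precision. Data were simulated for TNFα against control over 29256 probes, with normal noise independent between arrays. There 44 of 50 probes changed by -2, 41 of 50 by 2, 27 of 50 by -1, 26 of 50 by 1 and 2 of 29056 unchanged probes were called. In the real data 10.2% of tested probes were called, far more than were changed here, and arrays of 1 run deviated together, as given below. These rates therefore need not hold for the real arrays. Named were all members with every probe, related genes called against control, and the 3 genes most like each member. Members and lists were chosen with earlier results of these data known.

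No label pairs arrays. With group means and slide removed, residuals over 29256 probes correlated at 0.114 to 0.671 for all 30 pairs of arrays of 1 run and different groups, and above 0.1 in 2 of 60 pairs between runs. Without removing the slide it was 12 of 30 and 28 of 60. Alternatives were the slide, or runs and slide, as blocks, normexp on the median signal (offset 50; the mean signal was not used here), quantile or median normalization, other filters and thresholds, probe means, and each array left out.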

Additional observations from a re-analysis of the deposited data

How the results depend on the processing

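The 2 members called under TNFα and the 3 called under TGFß1 were called in all 11 alternatives and without any 1 of the 15 arrays. Over the 11 alternatives the log2 fold-change ranged from -2.91 to -2.19 for Adamts5 and -2.56 to -2.43 for Adamts1 under TNFα, and from -3.86 to -2.65, -2.90 to -2.79 and 1.83 to 1.98 for Adamts5, Adamts1 and Adamts4 under TGFß1. With an array left out the ranges were -2.94 to -2.59 and -2.80 to -2.05 under TNFα and -4.04 to -3.47, -3.16 to -2.42 and 1.65 to 2.13 under TGFß1, in the same order of genes. The fold-change of Adamts5 was larger than that of Adamts1 in these comparisons, a difference with no test, except with normexp (-2.19 against -2.43 under TNFα and -2.65 against -2.79 under TGFß1). With runs and slide both entered as blocks, the members called rose from 0 to 2 under IL-1β and from 0 to 1 under IL-6. All probes called rose from 0.252% to 1.09% and from 0.0648% to 0.777%. The related genes called rose from 7 to 12 under TNFα, where all probes called rose from 10.2% to 15.4%. They rose from 0 to 1 under IL-1β (Adamts7) and from 0 to 1 under IL-6 (Timp1, log2 fold-change 0.60, q = 0.032). With the slide alone as a block, 9 related genes were called under TNFα (Adamts6 and Timp4 added) and 12 under TGFß1 (Adamts12 added). That fit called 11.9% and 20.1% of all probes. The other tested Adamts6 probe had a log2 fold-change of -0.37 under TNFα without blocks. Timp4 was not well above background on any TNFα array. The fit with runs was added for the related genes after seeing the data. That fit raised the member calls between cytokines from 10 to 14, with 1.77% to 22.1% of all probes called in place of 0.419% to 17.0%, while the other settings gave 8 to 10 and arrays left out gave 8 to 10. Whether the runs are real pairs was not tested beyond the residuals.

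Between cytokines, Adamts4 in IL-6 against TGFß1 was not called with quantile normalization (q = 0.0504), without a filter (0.0652), with probe means (0.117), with only the 2 groups compared (0.0892), with a fold-change of at least 2, or without TGFß1 7 (log2 -0.64, q = 0.107), IL-6 3 (-0.78) or IL-6 13 (-0.83). Adamts4 in IL-6 against TNFα was called without TGFß1 7 (q = 0.0423). Adamts5 in IL-1β against TNFα was not called with normexp (0.0571), without a filter (0.0951) or with only the 2 groups (0.079), and its log2 value without IL-1β 10 was 1.25. Adamts1 lost its call in IL-1β against TGFß1 without TGFß1 2 (1.59), TGFß1 12 (1.60) or IL-1β 10 (1.24), and in IL-6 against TNFα without TNFα 4 (1.80), TNFα 14 (1.81) or IL-6 8 (1.64). The causes were not tested. Members below background could not be compared at any setting used here.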
